A study of Homo sapiens with 4 samples.

Results

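The ERBB family of receptors and their EGF-like ligands were examined in ovarian cancer cells carrying a short hairpin RNA against GALNT3. The group holds 10 genes, the receptors EGFR, ERBB2, ERBB3 and ERBB4 and the ligands AREG, EREG, HBEGF, TGFA, NRG1 and BTC, out of 17240 genes named on the array. It was defined by gene name, and every array probe whose accession belongs to one of these genes was taken. There were 18 such probes, and all 18 passed the filter on dim probes.

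A2780s is an established human ovarian cancer cell line. Total RNA of 2 stable clones of this line, labelled sh-G1 and sh-G2, was compared with RNA of 1 mock-transfected clone, ctrl. Both sh clones were stably transfected with the same short hairpin RNA against GALNT3, which encodes an enzyme that starts O-linked glycosylation of proteins, and were isolated under puromycin selection. The ctrl clone came from a mock transfection with the same plasmid vector and the same selection. Each sh clone was hybridised against ctrl on 2 Agilent arrays of 2 colours with the dyes exchanged. The sh clone carried Cy5 in replicate 1 and Cy3 in replicate 2. Sample labels spell the cell line of ctrl differently, and it was taken to be 1 clone throughout. Each group is therefore 1 clone, and a difference between a clone and ctrl that was present before transfection cannot be told apart from a difference that came with the short hairpin RNA.

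ERBB receptors are tyrosine kinases of the cell surface that pair with each other when a ligand binds. EGFR binds EGF, amphiregulin, transforming growth factor alpha and others. ERBB3 and ERBB4 bind neuregulins, ERBB2 has no known ligand of its own and is the favoured partner of the others, and the kinase of ERBB3 is weak. The ligands are made as membrane-bound precursors that proteases release, and the activated receptors signal through the RAS and ERK and the PI3K and AKT pathways. Receptors of this family are expressed in many epithelial ovarian cancers.

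On each array 43376 non-control spots were read, between 145 and 215 of them carried an outlier mark, and none was saturated. All 4 arrays were on the same slide. The share of spots well above background lay between 88.1% and 97.6% of a channel, so this mark alone says little about expression. The GALNT3 probe gave log2 ratios of sh clone over ctrl of -0.09 and 0.08 for the clone labelled sh-G1, and of 0.12 and -0.14 for the clone labelled sh-G2. Its mean of -0.01 (95% interval -0.12 to 0.11, limma adjusted p = 0.963) shows no lower GALNT3 signal and so goes against the labels. The probe is a weak check, since its ctrl signal was 64 to 91.5 scanner units, it was well above background in the sh clone on 2 of 4 arrays, and the offset of 50 added to each signal pulls such ratios towards 0 (the mean was -0.04 with an offset of 0). The study selected the clones by RT-PCR and Western blot, which are not analysed here. The clones are therefore named by their labels, and each direction below is that of the clone labelled sh-G1 or sh-G2 over ctrl.

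Across the family, the EGFR probe was lower in both sh clones and the other 17 probes lay close to 0. Log2 ratios were averaged over the 2 arrays of each clone, and limma tested whether the mean of the 2 clones differed from 0, with Benjamini-Hochberg adjustment over 39151 probes (n = 2 clones). None of the 18 probes passed an adjusted p of 0.05 in either direction, where 0.700% of all probes passed as lower and 0.138% as higher. At an unadjusted p under 0.05 limma called 1 of 18, the EGFR probe, against 13.3% of all probes. The means of the 17 other probes ran from -0.15 to 0.12. The median over the 18 was -0.004, as it was over all probes.

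**Figure D1:**
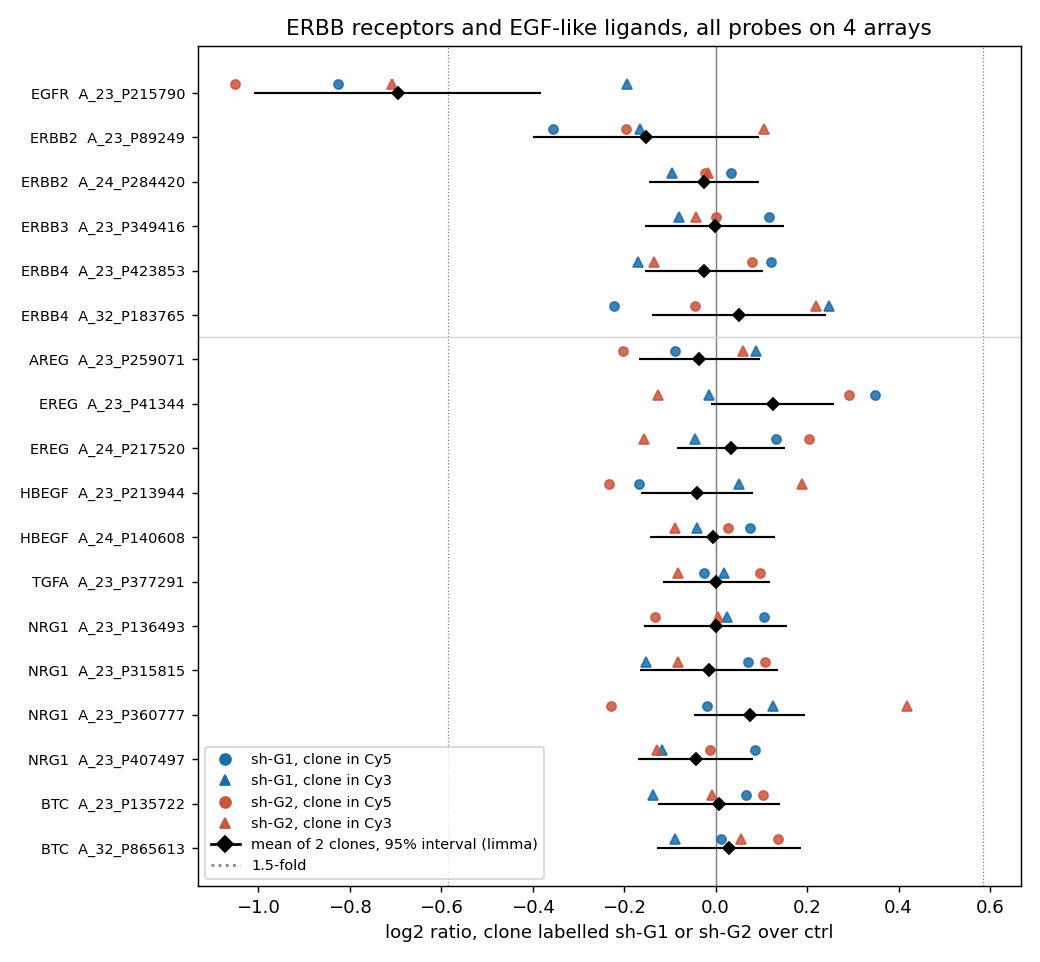
Log2 ratio of the clone labelled sh-G1 or sh-G2 over ctrl (x axis) for each of the 18 probes (y axis), receptors above the grey line and ligands below it. Coloured symbols are the 4 arrays, diamonds the mean of the 2 clones with its 95% interval from limma, and dotted lines 1.5-fold. The EGFR probe lies below 0 on all 4 arrays, and the other means lie between -0.15 and 0.12.

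EGFR, the receptor for EGF, is measured by probe A_23_P215790 and is a gene of chromosome 7. The median intensity of its spots in ctrl, averaged over spots, was 446 and 228 scanner units against sh-G1, replicates 1 and 2, and 450 and 274 against sh-G2, over a local background of 38.5 to 41.1. In the channel of the sh clone it was 149, 180, 138 and 181, in the same order. As scanned, before the dyes were balanced, the ctrl signal was the higher on every array, with either dye. That alone does not mark a difference. The EREG probe A_24_P217520, with a mean log2 ratio of 0.03, also had the higher signal in ctrl on every array. RNA was taken from whole cultures, so fewer expressing cells and less RNA per cell cannot be told apart.

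After normalisation the log2 ratio of EGFR was -0.83 and -0.19 for sh-G1 and -1.05 and -0.71 for sh-G2. The array of sh-G1 with the sh clone in Cy3 stood closest to 0. The mean of the clones was -0.69 (95% interval -1.01 to -0.38), a level 1.62-fold lower than in ctrl (interval 1.30-fold to 2.01-fold lower). The limma adjusted p was 0.146 (unadjusted 0.00448), so the difference did not pass. Of the 39151 probes, 502 (1.28%) had a mean as low or lower. Its mean was the only one of the 18 at least 1.5-fold lower, where 1.68% of all probes were, and no mean was 1.5-fold higher, against 0.667%. EGFR was at least 1.5-fold lower on 3 of 4 arrays. No probe of the family was at least 1.5-fold lower or higher on all 4 arrays, which 0.920% and 0.230% of all probes were.

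The test compares the sh clones with a ctrl of 1 clone, and so leaves out the spread among ctrl clones. Given the spread of the sh clones, the interval for EGFR widened to -1.24 to -0.15, with a limma adjusted p of 0.817. With 1 array left out the adjusted p for EGFR ran from 0.00115, without sh-G1 replicate 2, to 0.305, without sh-G1 replicate 1. Without sh-G2 replicate 1 it was 0.0106. The call thus depends on single arrays, while the direction did not.

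The array carries the EGFR probe several times, which shows the precision within an array. On the array of sh-G1 with the sh clone in Cy5, 8 spots lay between 403 and 482 units in ctrl and between 136.5 and 162 in the sh clone. With the dyes exchanged, 8 spots lay between 206 and 261 in ctrl and between 162 and 202.5 in sh-G1. For sh-G2 in Cy5, 10 spots gave 422.5 to 483 in ctrl and 122 to 180 in the sh clone. In Cy3, 8 spots gave 237 to 320 in ctrl and 172 to 186 in sh-G2. The probe is printed 10 times on each array, and spots with an outlier mark were left out, which can narrow these ranges. Among the spots used, the 2 channels did not overlap on any of the 4 arrays. The spots share a hybridisation and are not replicates, and these intensities are as scanned, before the dyes were balanced.

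ERBB2, the partner receptor without a ligand, has a probe printed 10 times, A_23_P89249. Its mean spot intensity in ctrl was 14378, 7614, 14159 and 8987 units on the arrays in the order above, and in the sh clone 6462, 6766, 7970 and 10554. As scanned, the sh channel was the lower on 3 arrays and the higher on sh-G2 replicate 2, and the dyes have unequal brightness. On sh-G1 replicate 1 its spots lay between 13523 and 15320 in ctrl and between 5598 and 7286 in the sh clone. The channels did not overlap on sh-G2 replicate 1 either, so spots apart as scanned are not particular to EGFR. The normalised log2 ratios were -0.35, -0.16, -0.20 and 0.11, with a mean of -0.15 (-0.40 to 0.09, limma adjusted p = 0.571). The other ERBB2 probe, A_24_P284420, gave 0.03, -0.10, -0.02 and -0.02 and a mean of -0.03 (-0.15 to 0.10). Neither probe differed from ctrl beyond its error.

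**Figure D2:**
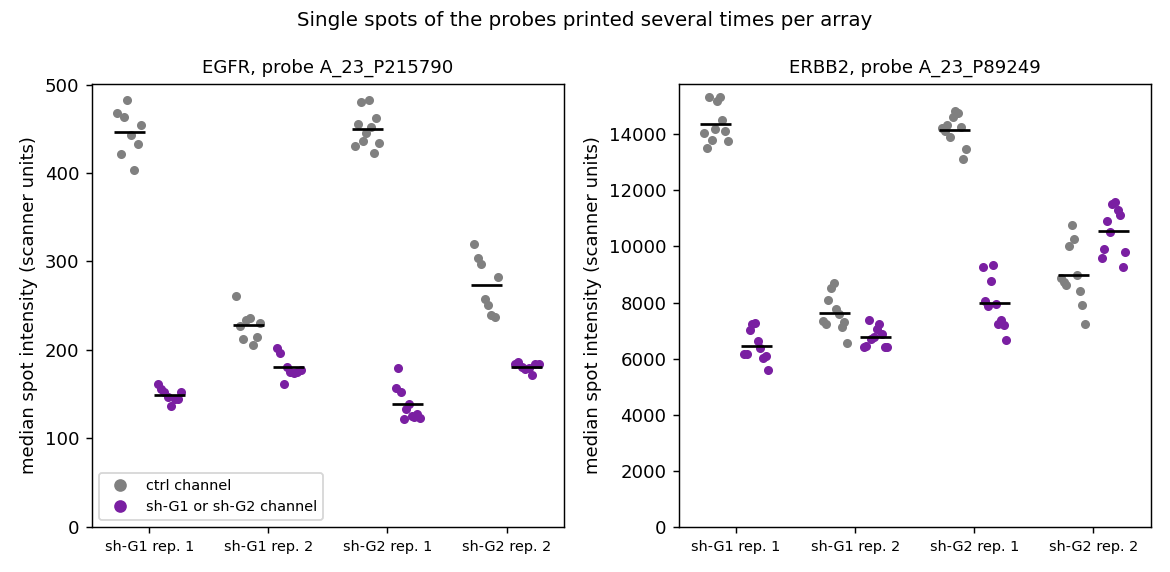
Median intensity of each spot in scanner units (y axis, from 0) for the EGFR and ERBB2 probes printed several times, by array (x axis), as scanned and before dye normalisation. Grey points are ctrl, purple points the sh clone, and bars the means. Spots with an outlier mark are left out. The EGFR channels do not overlap on any array. Those of ERBB2 do not overlap on either array with the sh clone in Cy5, and the sh channel is the higher one on sh-G2 replicate 2.

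ERBB3, a receptor for neuregulins, was read by 1 probe whose ctrl signal was 1050, 946.5, 1259 and 960 units. Its log2 ratios were 0.12, -0.08, 0.00 and -0.04, and the interval of its mean ran from -0.15 to 0.15. ERBB4, another neuregulin receptor, had 2 probes. The probe A_23_P423853, with ctrl signals of 424 to 577, gave 0.12, -0.17, 0.08 and -0.14. The probe A_32_P183765, with ctrl signals of 4819 to 9530, gave -0.22, 0.25, -0.05 and 0.22. Each of these probes changed sign with the dyes, and the 2 ERBB4 probes did so in opposite directions. Their means were -0.03 (-0.15 to 0.10) and 0.05 (-0.14 to 0.24).

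Among the ligands of EGFR, the amphiregulin gene AREG gave log2 ratios of -0.09, 0.09, -0.20 and 0.06, with ctrl signals of 253 to 380. EREG, which encodes epiregulin, had 2 probes in the same order with 0.35, -0.01, 0.29 and -0.13 (A_23_P41344) and 0.13, -0.05, 0.20 and -0.16 (A_24_P217520). The first had the highest mean of the family, 0.12 (-0.01 to 0.26, limma adjusted p = 0.405), which did not pass, and both were above 0 only with the sh clone in Cy5. The betacellulin gene BTC had means of 0.01 (-0.13 to 0.14) and 0.03 (-0.13 to 0.19) at ctrl signals of 85 to 157. EREG, AREG and BTC lie on chromosome 4 in that order with no protein-coding gene between them in the RefSeq order, beside EPGN, the gene of epigen. EPGN gave -0.04, 0.12, 0.05 and 0.08, with a mean of 0.05 (-0.07 to 0.17).

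HBEGF, which encodes the heparin-binding ligand, had 2 probes with means of -0.04 (-0.16 to 0.08) and -0.01 (-0.14 to 0.13). Their ratios were -0.17, 0.05, -0.23 and 0.19 (A_23_P213944) and 0.08, -0.04, 0.03 and -0.09 (A_24_P140608), again turning with the dyes and in opposite ways. TGFA, the gene of transforming growth factor alpha, was close to its background. Its ctrl signal of 67 to 102 units stood over a local background of 35 to 42, and the sh clone was well above background on 2 of 4 arrays. Its ratios of -0.02, 0.02, 0.10 and -0.08 had a mean of 0.00 (-0.12 to 0.12), and the offset pulls such low signals towards 0, as for GALNT3.

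NRG1 encodes neuregulin, the ligand of ERBB3 and ERBB4, in several isoforms, and had 4 probes. Their means were 0.00 (-0.16 to 0.16, A_23_P136493), -0.01 (-0.17 to 0.14, A_23_P315815), 0.07 (-0.05 to 0.20, A_23_P360777) and -0.04 (-0.17 to 0.08, A_23_P407497). The widest spread was that of A_23_P360777, with -0.02, 0.12, -0.23 and 0.42. That probe had ctrl signals of 70.5 to 141 and was well above background in the sh clone on 3 of 4 arrays. The second BTC probe, A_32_P865613, was above background in the sh clone on as many. The other 15 probes of the family were well above background in both channels on all 4 arrays, and all 18 were in ctrl.

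For 17 of the 18 probes, all but EGFR, the 95% interval of the mean lay wholly within 1.5-fold of ctrl. The widest bound among them was 1.32-fold, for ERBB2. The offset narrows these intervals for the dim probes, as it does the EGFR ratio, which was -0.88 with an offset of 0. The count was also 17 when ctrl was given the spread of the sh clones. It was 16 with the software's ratios and with the deposited series values, where the interval of NRG1 A_23_P360777 passed 1.5-fold, and 16 without sh-G2 replicate 2, where that of ERBB2 A_23_P89249 did. The same count was not made over all probes, so it does not set the family apart. Of all probes, only 1.68% had a mean at least 1.5-fold lower and 0.667% at least 1.5-fold higher.

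The ctrl and sh channels were also set side by side after normalisation, on a log2 scale. EGFR lay between 8.03 and 8.51 in ctrl on the 4 arrays, and at 7.56 and 7.84 in sh-G1 and 7.46 on both arrays of sh-G2. It was the only probe of the family, 1 of 18, with each sh level below every ctrl level, where 4.35% of all probes were so. No probe of the family had each sh level above every ctrl level, against 2.47% of all probes.

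**Figure D3:**
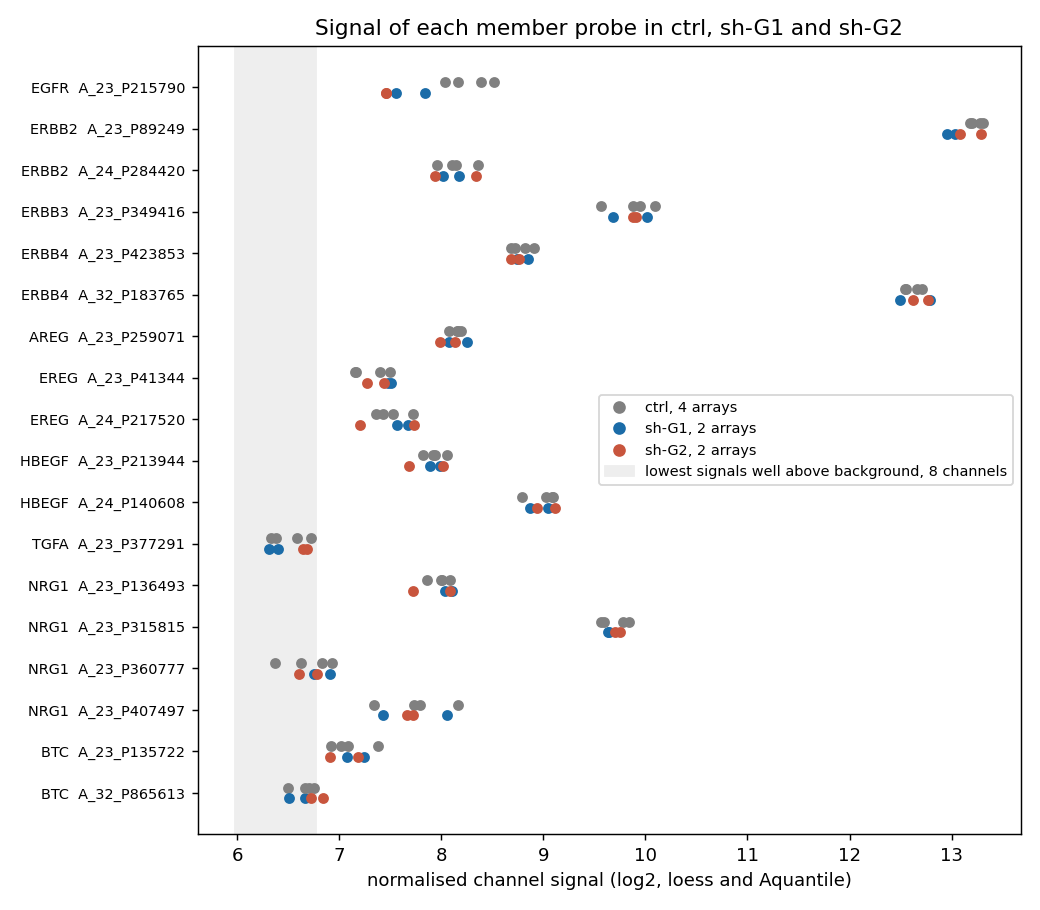
Normalised signal on a log2 scale (x axis) of each probe (y axis) in ctrl (grey, 4 arrays), sh-G1 (blue, 2 arrays) and sh-G2 (red, 2 arrays). The shaded band spans the lowest signals well above background in the 8 channels. Levels of different probes cannot be compared, and EGFR is the only probe whose sh levels all lie below the ctrl levels.

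The dye exchange separates a difference between clones, which keeps its sign once the ratio is turned, from a difference between dyes, which changes it. Between the 2 arrays of sh-G1, 15 of the 18 probes had opposite signs, and between those of sh-G2, 14 had. Over all probes this share was 59.4% and 65.1%. EGFR was the only probe below 0 on all 4 arrays, where 9.04% of all probes were, and none was above 0 on all 4, where 6.21% were. Between the clones in the same dye orientation, the sign was the same for 14 probes in Cy5 and for 15 in Cy3, against 71% and 76.3% of all probes. Over all probes, arrays of the same dye orientation correlated more closely (r = 0.61 and 0.73) than the dye-exchanged arrays of a clone (r = 0.32 and 0.19). These correlations are across probes, and the arrays share ctrl. For 12 of the 18 probes the sign was opposite between the dye-exchanged arrays of both clones, against 44.3% of all probes.

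**Figure D4:**
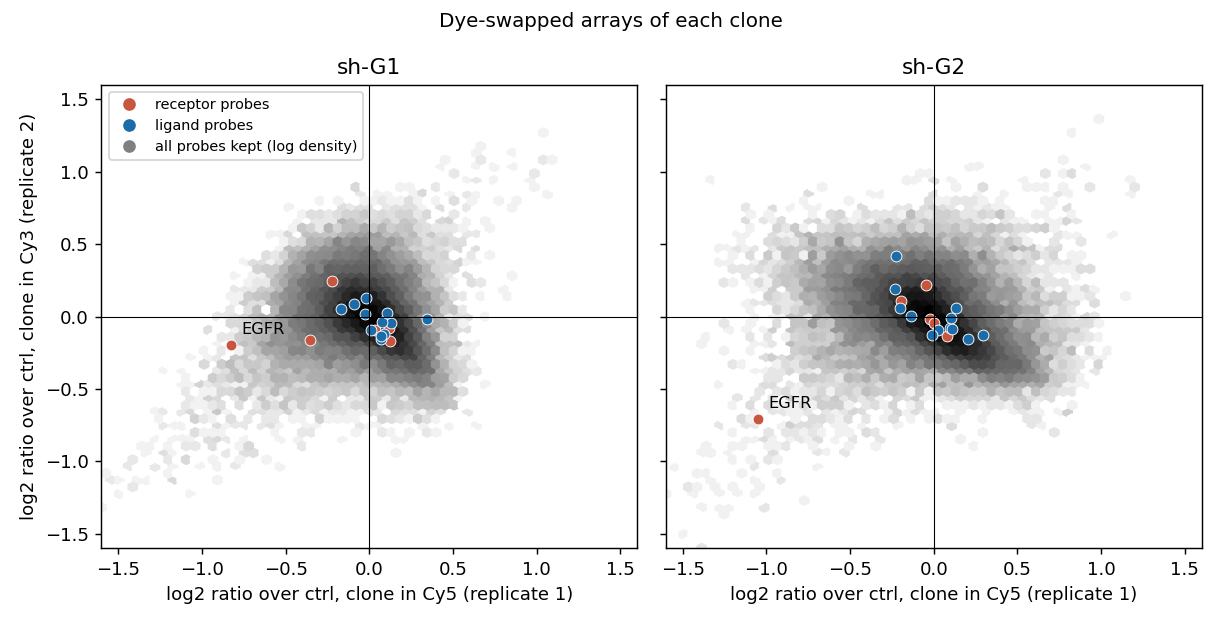
Log2 ratio over ctrl with the sh clone in Cy5 (x axis) and in Cy3 (y axis) for sh-G1 and sh-G2, with probes beyond the axes left out. Grey shading is the number of probes on a log scale, red points the receptor probes and blue points the ligand probes. EGFR lies in the lower left quadrant for both clones.

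The clones labelled sh-G1 and sh-G2 were compared with each other in a limma fit of the 4 arrays with a term for dye. Each side is 1 clone, so this fit sets their difference against the spread between arrays only, and its intervals and p-values do not cover the spread between clones. None of the 18 probes differed at an adjusted p of 0.05, where 0.123% of all probes did, and 1 of 18 had an unadjusted p under 0.05, against 7.45% of all probes. That probe was EGFR, with clone means of -0.51 for sh-G1 and -0.88 for sh-G2. The difference of -0.37 (sh-G2 minus sh-G1, interval -0.65 to -0.09) had a limma adjusted p of 0.489. The other differences lay up to 0.21, that of the ERBB2 probe A_23_P89249.

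The named genes whose ratios were nearest to EGFR, by Euclidean distance over the 4 log2 ratios, were SHFL at 0.11, PLPPR5 at 0.14, MAPK11 at 0.16, IFIT1 at 0.18 and F2R at 0.18. SHFL and IFIT1 are interferon-induced genes with antiviral roles, MAPK11 is a p38 kinase and F2R a receptor for thrombin. Their means lay between -0.74 for F2R and -0.66 for MAPK11, and none passed an adjusted p of 0.05.

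Beyond the 10 genes, 99 genes of the ERBB pathway were followed in 4 lists, and 97 had a probe that passed the filter. By limma, 1 of the 97 rose and none fell at an adjusted p of 0.05. Of all genes read by their brightest probe, 0.184% rose and 0.906% fell. At an unadjusted p under 0.05, 10 of the 97 were higher and 10 lower, against 6.24% and 9.09% of all genes. The median over the 97 was -0.01.

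Of the other ligands, the ADAM proteases and the rhomboid family proteins listed, 11 of 12 were measured, and none rose or fell, with a median of -0.01. NRG2, a neuregulin, was lowest. Its brighter probe, A_23_P213699, gave -0.93, -0.27, -1.19 and -0.48, with a mean of -0.72 (-0.94 to -0.50, limma adjusted p = 0.0777), and it passed in 5 of 16 alternative fits. The other NRG2 probe gave -0.31, 0.16, -0.32 and -0.07, with a mean of -0.13 (-0.28 to 0.02), so the probes of this gene were unlike. NRG4 was highest at 0.24 (0.01 to 0.46). EGF itself had a mean of -0.01 and ADAM17, the main protease that releases several of these ligands, -0.16 (-0.36 to 0.04).

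Of the inhibitors and regulators of receptor turnover, 15 of 16 were measured, and none rose or fell, with a median of -0.01. LRIG3, of a family of membrane proteins that regulate receptor levels, was highest with ratios of 0.41, 0.73, 1.05 and 0.81 and a mean of 0.75 (0.43 to 1.06, limma adjusted p = 0.130). Its relative LRIG1, a negative regulator of EGFR, was lowest by brightest probes at -0.23 (-0.43 to -0.03). The probes of SOCS3, a suppressor of cytokine signalling, disagreed, with means of -0.02 for the brighter and -0.77 for the dimmer (limma adjusted p = 0.252). ERRFI1, an inhibitor of EGFR that its signalling induces, had a mean of -0.07 (-0.23 to 0.10), and CBL, the ligase that marks EGFR for degradation, -0.13 (-0.32 to 0.05).

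Of the adaptors and transducers, 41 of 41 were measured, 1 rose and none fell, with a median of -0.03. PIK3CA, the catalytic subunit alpha of PI3K, gave 1.31, 1.72, 1.81 and 1.68, all far above 0. Its mean of 1.63 (1.38 to 1.88) passed in limma with an adjusted p of 0.0278, and in 15 of 16 alternative fits. When ctrl was given the spread of the sh clones the limma adjusted p was 0.186. The lowest was PIK3R3, a regulatory subunit of PI3K, with -0.78, -0.51, -1.41 and -1.16 and a mean of -0.97 (-1.50 to -0.44, limma adjusted p = 0.194), and its other probe had a mean of -0.31. AKT2, a kinase downstream of PI3K, had a mean of -0.66 (-1.01 to -0.31, limma adjusted p = 0.182), and its other probes had means of -0.51 and -0.22.

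Of genes known to be induced by ERBB signalling, 30 of 30 were measured, and none rose or fell, with a median of -0.03. DUSP6, a phosphatase of ERK, was highest with 1.61, 2.40, 0.78 and 1.58, at least 1.5-fold higher on all 4 arrays. Its mean of 1.59 (0.92 to 2.26) did not pass, with a limma adjusted p of 0.130, and passed in 6 of 16 alternative fits. By brightest probes PHLDA1 was lowest at -0.55 (-0.95 to -0.16), but its 3 other probes had means of -0.07, -0.14 and -0.18. FOS, an immediate early transcription factor, had a mean of -0.55 (-0.74 to -0.35). EGR3, another such factor, had a mean of 0.44 (0.15 to 0.73).

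**Figure D5:**
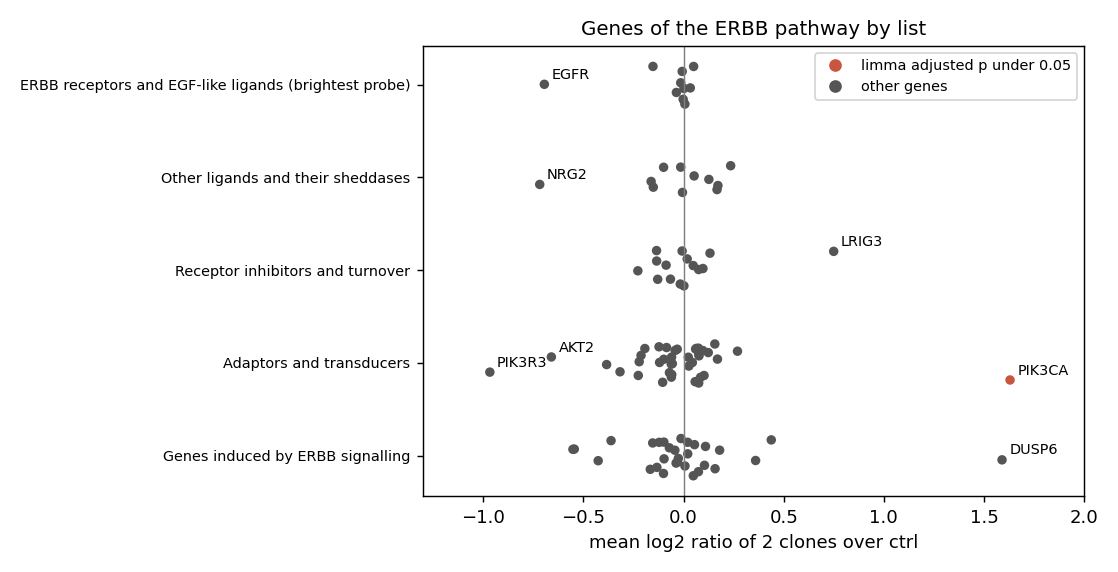
Mean log2 ratio of the 2 clones over ctrl (x axis) for the 10 genes by their brightest probe and for the genes of 4 pathway lists (y axis), 1 point a gene, with the vertical scatter within a list for legibility. Red marks a limma adjusted p under 0.05, which PIK3CA alone passed, and the genes farthest from 0 are named.

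Markers of cell types were read beside these genes, by their brightest probe. By limma, 0.906% of all genes so read fell and 0.184% rose at an adjusted p of 0.05. Of 7 epithelial markers, 2 fell, the keratins KRT8 at -1.03 (-1.20 to -0.86, limma adjusted p = 0.0316) and KRT18 at -2.32 (-2.76 to -1.89, limma adjusted p = 0.0365). The other KRT8 probe had a mean of -0.44 and did not pass (limma adjusted p = 0.151). The means of the 5 others, none of which passed, were -0.33 for EPCAM, -0.01 for CDH1, 0.02 for KRT7, 0.04 for KRT19 and -0.02 for CLDN4. The summed normalised level of the list was 15075 to 16637 units in ctrl, 5791 to 6458 in sh-G1 and 6449 to 6724 in sh-G2, a sum in which the bright KRT18 and KRT8 probes weigh most. Of the 4 fibroblast markers measured, none passed. All 4 were lower in both clones with a limma unadjusted p under 0.05, where 9.09% of all genes were lower at that threshold. The extracellular matrix genes DCN and LUM had means of -3.17 and -3.31. The means of DCN were -4.24 (sh-G1) and -2.09 (sh-G2), those of LUM -4.58 and -2.04. PDGFRB, a receptor of stromal cells, had the reverse order with -0.49 and -1.07, and the collagen gene COL1A2 gave -0.24 and -0.42, while its other probe had a mean of 0.01. Summed, this list was at 30975 to 33728 units in ctrl, 2032 to 2396 in sh-G1 and 7768 to 8302 in sh-G2, which is mostly DCN and LUM, the brightest probes of the list. Of these fibroblast markers, DCN and LUM were closer to ctrl in sh-G2, while PDGFRB and COL1A2 were closer to it in sh-G1. EGFR had clone means of -0.51 (sh-G1) and -0.88 (sh-G2). With 2 clones, their order cannot tell whether EGFR goes with any of these markers. All 7 epithelial and all 4 fibroblast genes were well above background in the sh clones on all 4 arrays. Of 4 markers of a mesenchymal state none passed, and CDH2, the cadherin of mesenchymal cells, was lowest with a mean of -1.50 (-2.29 to -0.72, limma adjusted p = 0.181). The means of the others were 0.01 for VIM, 0.02 for FN1 and 0.15 for ZEB1. The dimmer FN1 probes had means of -0.40 and -0.04. Of 4 ovarian carcinoma markers, 4 leukocyte and 3 endothelial markers, none passed, and their means lay between -0.11 and 0.04. The 4 ovarian carcinoma markers, PAX8, WT1, MUC16 and FOLR1, were well above background in ctrl on all 4 arrays. So were all 4 leukocyte and all 3 endothelial markers, and this mark therefore does not tell the cell types apart. The part of these markers in the EGFR ratio was not tested.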

How the data were processed

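Fluorescent cRNA of sh-G1, sh-G2 and ctrl was hybridised by the authors to 4 Agilent whole human genome arrays. The deposited values are median spot and background intensities and a log10 ratio of Cy5 over Cy3 from Agilent Feature Extraction, given as version 8.5.1.1 by the labels and 10.5.1.1 by the file headers. The software's ratios and the deposited series values used for alternatives are deposited as log10 and were converted to log2. The deposited series values of sh-G1 replicate 2 equal the error of the ratio and were not used. Deposited p-values were not used. The file headers place the array design on hg18.

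Spots with outlier marks were dropped, background was corrected by normexp (offset 50), and log2 ratios were loess normalised within arrays, turned to sh clone over ctrl and averaged over spots. Channel levels were scaled between arrays (Aquantile). Of 40905 probes with values on all arrays, 39151 remained that were well above background in 1 channel or both on each array. Probes were named through RefSeq (GRCh38.p14), 25398 of 41000. Of its coordinates, only the chromosome and the order of genes were used. Genes in lists were read by their brightest probe. The 2 arrays of a clone, whose RNA extracts are not stated to be separate, were averaged to 1 replicate. The clone means were tested against 0, and the clones against each other on 4 arrays with a dye term, with limma 3.58.1 (lmFit, eBayes with trend) in R 4.3.3 and Benjamini-Hochberg adjustment over all probes kept, at 0.05. The random block used statmod 1.5.0. The scripts were tested on simulated data, in which false calls of the fit between the clones were more frequent than its nominal level. With 4 arrays, their number limits the precision.

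The members and lists were chosen with earlier results of these data known. Genes named beyond the 10 and GALNT3 were, in each list, those past the test or otherwise the highest and lowest, and the 5 nearest to EGFR over the 4 arrays. EPGN, EGF, ADAM17, ERRFI1, CBL, SOCS3, AKT2, FOS, EGR3 and the markers named were added after their values were seen. Alternatives changed the background correction, the source of the ratios, the normalisation, the filters, the replicates and the fit.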

Additional observations from a re-analysis of the deposited data

How the results depend on the processing

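The EGFR probe was below 0 in all 16 alternatives, with means from -1.04 (deposited series values) to -0.54 (without sh-G1 replicate 1) and limma adjusted p from 0.00115 to 0.817. It was called in 5, so that the count of probes of the family called lower, 0 as reported, became 1 with the deposited series values (limma adjusted p = 0.00459), 1 with clone as a random block (0.00979) and 1 with 4 arrays taken as independent and a dye term, which is the replicate block (0.0429, chosen after seeing the data), and 0 to 1 with an array left out. The planned dye term with clone as a random block could not be fitted. With an array left out the dyes of that clone are no longer balanced. The deposited series values also leave out an array, sh-G1 replicate 2, on which the EGFR ratio stood closest to 0. Their EGFR value is therefore not a change of source alone. Probes at least 1.5-fold lower on all arrays numbered 0 as reported, 1 with the deposited series values, 0 to 1 with an array left out, and 1 by the mean of the clones.

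In the pathway lists 1 gene rose and 0 fell as reported. With the deposited series values 2 rose and 4 fell, with the random block 5 rose and 7 fell, with the replicate block 3 rose and 3 fell, with an array left out 1 to 4 rose and 0 to 5 fell, and with the spread of the sh clones given to ctrl 0 rose. Over all probes, 54 were higher and 274 lower as reported, 848 and 1721 with the random block, 316 and 933 with the replicate block, 213 and 796 with the deposited series values, 120 and 413 with the software's ratios, 0 and 0 with the spread given to ctrl (unadjusted p for EGFR 0.025), and between 56 and 343 higher and 325 and 872 lower with an array left out. The clone difference called 0 of 18 probes in each alternative run, and could not be tested with an array left out or with the deposited series values, which leave no residual degrees of freedom.

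Of 285 values recomputed for single probes, 46 changed sign, each with a limma adjusted p of at least 0.646. With the deposited series values these were AREG 0.0222, BTC A_32_P865613 -0.00326, ERBB2 A_24_P284420 0.0688, ERBB3 0.1506, ERBB4 A_32_P183765 -0.1783, HBEGF 0.0188 (A_23_P213944) and 0.0566 (A_24_P140608), NRG1 -0.0635 (A_23_P136493) and 0.1069 (A_23_P407497) and TGFA -0.0516. With the software's ratios they were ERBB2 A_24_P284420 0.0365, ERBB3 0.00962, NRG1 -0.0739 (A_23_P136493) and 0.0534 (A_23_P407497) and TGFA -0.1032. Without background correction they were BTC A_23_P135722 -0.000643, ERBB3 0.000642, NRG1 A_23_P136493 -0.0329 and TGFA -0.0684. ERBB3 was 0.000602 with an offset of 0, and NRG1 A_23_P136493 -0.00895 with median centring. With an array left out, values ran from -0.1013 to 0.0301 for AREG, -0.0441 to 0.0577 for BTC A_23_P135722, -0.0577 to 0.00757 for ERBB2 A_24_P284420, -0.0507 to 0.0473 for ERBB3, -0.098 to 0.0468 and -0.0668 to 0.1679 for ERBB4 A_23_P423853 and A_32_P183765, -0.0566 to 0.1244 for EREG A_24_P217520, -0.1458 to 0.0654 and -0.0359 to 0.0227 for HBEGF A_23_P213944 and A_24_P140608, -0.0342 to 0.0351, -0.0701 to 0.0423, -0.0873 to 0.236 and -0.094 to 0.00753 for NRG1 A_23_P136493, A_23_P315815, A_23_P360777 and A_23_P407497, and -0.0424 to 0.0465 for TGFA. The causes were not tested. TGFA, NRG1 A_23_P360777 and BTC A_32_P865613 have no value under the filter on both channels.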
